A study of Mus musculus with 6 samples.

Results

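A set of 10 genes whose protein products serve to mark or sort stem and progenitor cells of the mouse mammary gland were followed in 6 single-channel Affymetrix arrays of cultured mammary stem cells. The genes were chosen by name: Procr, Lgr5, Lgr6, Tspan8, Cd44, Prom1, Aldh1a1, Cd24a, Epcam and Ly6a. Of these 10 genes, 9 had a probe set, the group of probes that reads a transcript, listed with that gene alone, out of 22180 genes named in this way. Ly6a, which encodes the surface antigen Sca-1, was not paired with a probe set of its own and is not analysed here. Where a gene had several, its brightest probe set by 6-array mean was used. The study compared wild-type (WT) cells with Mll3-null cells, 3 arrays each, to learn what loss of the histone methyltransferase MLL3 (gene Kmt2c) does. Mll3-null lines were made by CRISPR genome editing, and all cells, of both genotypes, were grown as organoids, which are 3-dimensional cultures of epithelial cells. Each array is labelled a biological replicate, but the strain, the age of the donor mice and whether replicates were separate lines or separate cultures of a line are not stated by the labels. The p-values therefore measure the spread between these samples, which may be partly technical.

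The mammary epithelium has an outer basal layer, which holds the cells that rebuild a gland on transplantation, and an inner luminal layer. Those cells are enriched by flow cytometry with antibodies against surface proteins such as CD24, EPCAM and CD44, or by reporters of receptors such as PROCR, LGR5 and LGR6. PROM1 and Sca-1 are used chiefly to divide luminal cells, and high aldehyde dehydrogenase activity is used as an enzymatic mark of progenitors and of cancer stem cells. MLL3 places monomethyl marks on histone H3 at enhancers.

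All values below are deposited log2 expression levels, so a difference of 1 is a 2-fold change, and levels of different genes are not compared because each probe set responds differently. The array medians were between 4.35 and 4.40, and the small number of arrays limits the precision. Kmt2c itself was at 6.63, 5.58 and 5.82 in WT replicates 1 to 3 and at 5.84, 6.42 and 6.07 in Mll3-null replicates 1 to 3 (log2 level), with overlapping groups. The position of its probe set relative to the edited site is unknown here, and so the genotype labels are not checked by this level. The cells carried epithelial markers of both layers. Mll3-null replicate 3 stood apart in the basal ones: the mean log2 level of 9 measured basal markers was 5.92 there, against 7.85 and 8.17 in Mll3-null replicates 1 and 2 and 7.51 to 7.91 in WT. The basal keratin Krt14 was at 6.65 in that library and between 11.74 and 12.43 in the other 5. It was the lowest array for 6 of the 9 markers but not for Cnn1, Mylk and Oxtr, and the oxytocin receptor gene Oxtr was highest there, at 8.35 against 4.74 to 6.54 elsewhere. The mean of 9 luminal markers ran from 8.48 to 9.04 in WT and from 8.49 to 9.12 in Mll3-null arrays, and the luminal keratin Krt8 from 10.16 to 10.57 over all 6. No fibroblast, endothelial, leukocyte or adipocyte marker had a 6-array mean of at least 6. The list means on single arrays were 4.04 to 4.28 in WT and 4.09 to 4.35 in Mll3-null cells for fibroblasts, 3.85 to 3.95 and 3.84 to 3.95 for endothelium, 3.77 to 3.89 and 3.82 to 3.90 for leukocytes, and 3.72 to 3.92 and 3.66 to 3.85 for adipocytes.

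The marker genes lay mostly lower in Mll3-null cells, but no difference passed the test. Of the 9 measured genes, 8 had a lower mean in Mll3-null than in WT cells and only Lgr5 had a higher one, where 48.5% of all 22180 genes had a lower mean and 51.5% a higher one. The genes were chosen with earlier results of these data known, so this count is a description only. It includes the small differences of Epcam (-0.02, log2) and Aldh1a1 (-0.10). Among genes with a 6-array mean of at least 6, a class that held 6 of the 9, 44.9% had a higher mean. WT replicate 2 was the highest of the 6 arrays for 5 of the 9 (Procr, Lgr5, Lgr6, Cd44 and Aldh1a1), against 18.5% of all genes. The median difference of the 9 was -0.46 (log2, Mll3-null minus WT), against 0.01 over all genes. With limma's moderated test and Benjamini-Hochberg adjustment over all genes, 0 of the 9 had an adjusted p under 0.05, where 0% of all genes did, and their adjusted p ran from 0.84 to 0.98. At an unadjusted p under 0.05 there were 0 of the 9, against 4.93% of all genes. The groups did not overlap for 1 of the 9 genes, Procr, against 10.7% of all genes, or 5.31% counting only those lower in Mll3-null cells. Only Lgr6 differed by at least 2-fold between group means, as did 1.15% of all genes in either direction. These counts turned on single arrays, and with fewer arrays more of all genes also have non-overlapping groups. Without WT replicate 2 the groups did not overlap for 4 genes, namely Procr, Prom1 and Tspan8 with lower and Lgr5 with higher values in Mll3-null cells, against 21% of all genes. In that setting 3 of the 9 had a higher mean, against 52.4% of all genes. There were 3 such non-overlapping genes without WT replicate 3 (Procr, Lgr6 and Cd24a; 20.7% of all genes), 3 without Mll3-null replicate 1 (Procr, Lgr6 and Cd44; 29.8%) and 2 without Mll3-null replicate 2 (Procr and Cd24a; 17.9%). The number with a higher mean was 0 without WT replicate 1 (52% of all genes), 2 without WT replicate 3 (49.9%) and 2 without Mll3-null replicate 3 (50.2%).

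**Figure D1:**
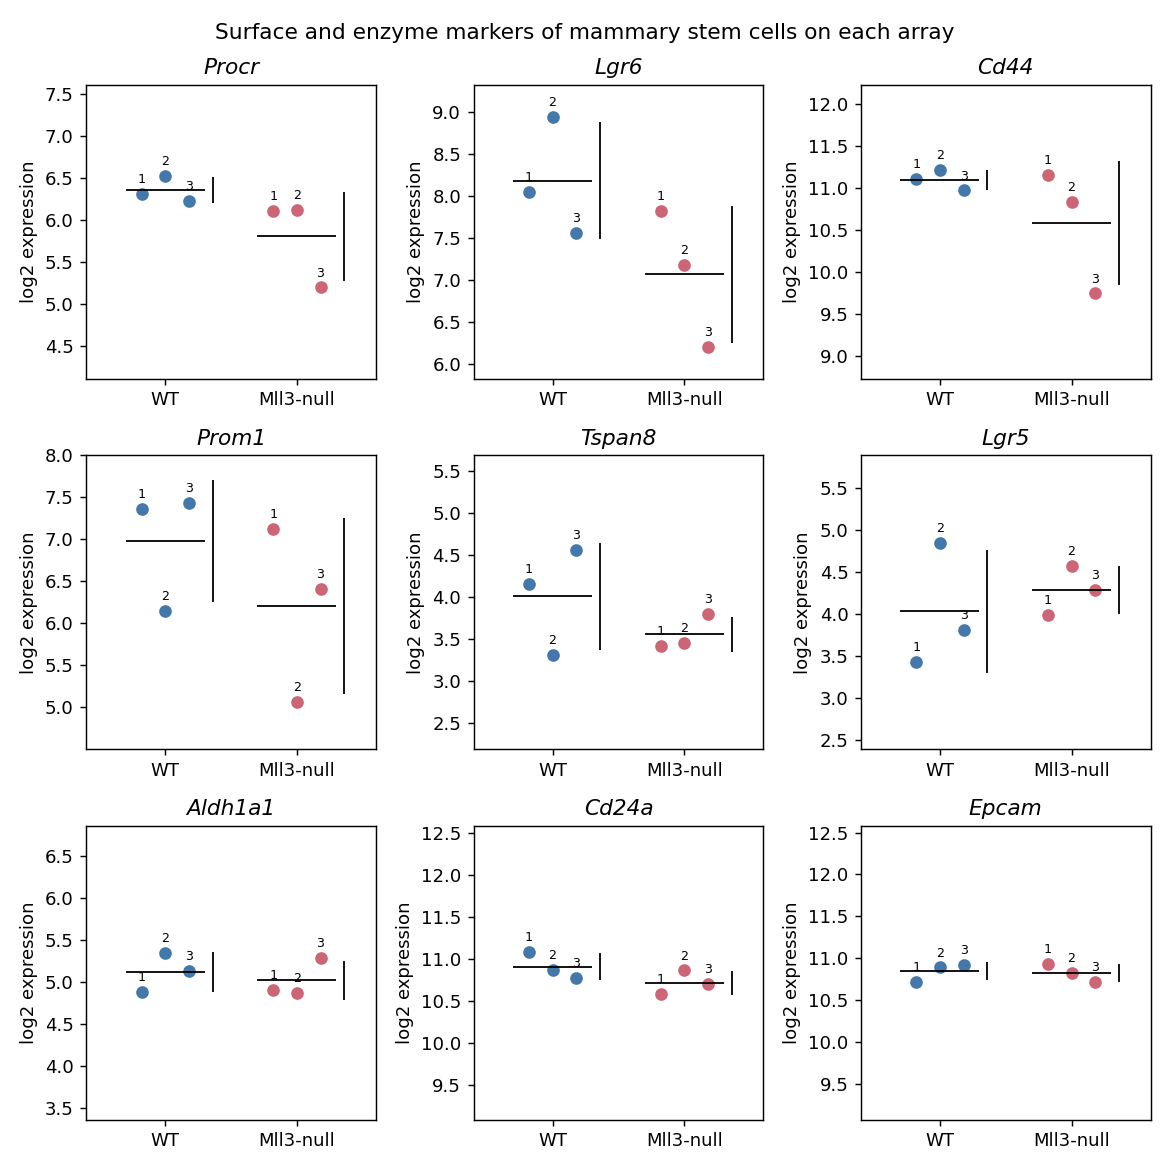
Log2 expression of the 9 measured marker genes (vertical axis, each panel spanning the same 3.5 log2 units) on 3 WT and 3 Mll3-null arrays; points are arrays labelled by replicate number, the horizontal line is the group mean and the vertical line beside it is ± 1 SD. The groups overlap for every gene except Procr, and the spread is wide for Lgr6 and Prom1 and narrow for Epcam.

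Procr, Lgr6 and Cd44 are described first because all 3 had their lowest value on the same array. PROCR is the endothelial protein C receptor, a membrane protein best known from anticoagulation, and Procr marks a basal population with stem cell activity. Procr was at 6.31, 6.52 and 6.22 in WT replicates 1 to 3 and at 6.11, 6.12 and 5.20 in Mll3-null replicates 1 to 3 (log2 level). Every Mll3-null array was below every WT array, narrowly so for Mll3-null replicates 1 and 2 and by a wide margin for replicate 3. Group means were 6.35 ± 0.15 and 5.81 ± 0.53 (SD, n = 3 each). The difference of -0.54 ± 0.26 (log2, SE; 95% interval -1.17 to 0.08) had an adjusted p of 0.84 (limma), and it was -0.24 without Mll3-null replicate 3.

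LGR6, like its relative LGR5, is a receptor for R-spondins, secreted proteins that strengthen Wnt signalling. Lgr6 was at 8.05, 8.95 and 7.56 in WT replicates 1 to 3 and at 7.83, 7.18 and 6.21 in Mll3-null replicates 1 to 3. WT replicate 2 was the highest of all, Mll3-null replicate 3 the lowest, and Mll3-null replicate 1 lay above WT replicate 3, so the groups overlapped. The means of 8.19 ± 0.70 and 7.07 ± 0.82 (SD, n = 3 each) differed by -1.12 ± 0.49 (log2, SE; 95% interval -2.30 to 0.06; 2.17-fold lower), the widest difference among the 9 genes, with an adjusted p of 0.84 (limma). Without Mll3-null replicate 3 the difference was -0.68 and without WT replicate 2 it was -0.74. Lgr6 lies on chromosome 1 (GRCm38.p6 annotation). The 510 genes of that chromosome with a mean of at least 6 had a median 0.30 log2 units above their 6-array median in Mll3-null replicate 3, the array in which Lgr6 was lowest. With each array centred on the gene's own chromosome, a step added after the data were seen, the difference of Lgr6 was -1.26.

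CD44 is a receptor for hyaluronan and a long-used mark of breast cancer stem cells. Cd44 was at 11.11, 11.22 and 10.97 in WT replicates 1 to 3 and at 11.16, 10.84 and 9.75 in Mll3-null replicates 1 to 3. Only Mll3-null replicate 3 was far from the rest, while replicate 1 lay inside the WT range. The means were 11.10 ± 0.12 and 10.58 ± 0.74 (SD, n = 3 each), and the difference of -0.52 ± 0.35 (log2, SE; 95% interval -1.35 to 0.31; adjusted p = 0.84, limma) was -0.10 without Mll3-null replicate 3. Leaving out Mll3-null replicate 1 instead gave -0.81 (unadjusted p = 0.042, adjusted p = 0.38, limma).

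That array, Mll3-null replicate 3, was lowest for 4 of the 9 marker genes (Procr, Lgr6, Cd44 and, by a slight margin, Epcam), against 21.4% of all genes. It is also the library with low basal markers: 5.92 for the mean of 9 basal markers against 7.51 to 8.17 elsewhere. Of those 9 markers 6 had a lower and 3 a higher mean in Mll3-null cells, and 0 passed the adjusted threshold. The part of these markers in the low values of Procr, Lgr6 and Cd44 was not tested. In such bulk samples fewer cells of a type and less RNA per cell cannot be told apart. Over the 6 arrays Pearson's r was 0.96 between Procr and Cd44, 0.91 between Procr and Lgr6 and 0.88 between Lgr6 and Cd44. These pairs were singled out after their values were seen, share the same 6 libraries and include that 1 extreme array, so r is given as a description only.

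The 250 bases before the RefSeq start site (GRCm38.p6) of these 3 genes are printed to show what their promoters hold, since the 3 varied together across the arrays. They lie at chr2:155750967-155751216 (plus strand), chr1:135105277-135105526 (minus strand) and chr2:102901666-102901915 (minus strand). Capitals mark matches on either strand to a set of 5 short motifs. These are the TATA box (spelled TATAAA), the CCAAT box (its name is its letters), the GC box (spelled GGGCGG), the core of sites for TCF/LEF, the factors of Wnt signalling (spelled CTTTGA), and the core shared by E-boxes and hypoxia response elements (spelled ACGTG). None of the marked matches overlap each other. All other bases are in lower case, 5′ to 3′ on the strand of the gene.

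Procr: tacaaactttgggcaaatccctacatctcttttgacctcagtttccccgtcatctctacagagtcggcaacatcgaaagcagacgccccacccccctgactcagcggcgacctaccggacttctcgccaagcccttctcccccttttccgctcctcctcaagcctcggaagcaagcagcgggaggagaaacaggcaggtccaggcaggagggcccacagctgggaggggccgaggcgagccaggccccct
Lgr6: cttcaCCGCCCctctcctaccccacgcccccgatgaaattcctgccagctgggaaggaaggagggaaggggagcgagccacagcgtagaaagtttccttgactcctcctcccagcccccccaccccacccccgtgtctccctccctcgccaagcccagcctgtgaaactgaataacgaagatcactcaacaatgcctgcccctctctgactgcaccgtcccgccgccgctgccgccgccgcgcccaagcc
Cd44: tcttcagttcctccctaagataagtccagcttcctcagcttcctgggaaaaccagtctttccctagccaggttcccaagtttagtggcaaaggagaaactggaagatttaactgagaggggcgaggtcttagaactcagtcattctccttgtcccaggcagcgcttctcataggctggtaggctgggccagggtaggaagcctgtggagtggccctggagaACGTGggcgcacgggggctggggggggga

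The Procr window held none of the 5 motifs, that of Lgr6 held 1 GC box on the reverse strand and that of Cd44 held 1 ACGTG. Among 32851 promoter windows of the same length, 32.7% held a GC box and 16.6% an ACGTG, so both matches are common. The windows held 13, 16 and 5 CG dinucleotides for Procr, Lgr6 and Cd44, where the median over all windows was 6. No motif was shared by the 3 windows. No CTTTGA was present in these letters in the 3 windows, and 13.8% of all windows held it. RefSeq windows were matched for 7 of the 10 genes, with 9 start sites.

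Lgr5, the paralog of Lgr6 that marks stem cells in several epithelia, did not follow Lgr6. It was at 3.43, 4.84 and 3.81 in WT replicates 1 to 3 and at 3.99, 4.57 and 4.29 in Mll3-null replicates 1 to 3 (log2 level). All Mll3-null arrays lay inside the WT range, whose lowest and highest arrays were also the lowest and highest overall. The difference was 0.25 ± 0.36 (log2, SE; 95% interval -0.62 to 1.13; adjusted p = 0.89, limma), with means of 4.03 ± 0.73 and 4.28 ± 0.29 (SD, n = 3 each). It was 0.66 without WT replicate 2 and -0.05 without WT replicate 1, so its direction depended on single arrays. On 4 of the 6 arrays the value was under the array median of 4.35 to 4.40, so Lgr5 was dim. A second Lgr5 probe set stayed between 3.14 and 3.26 on all arrays.

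Prom1 and Tspan8 shared a different pattern, with WT replicate 2 far below the other WT arrays. PROM1 (CD133) is a membrane glycoprotein of cell protrusions that marks mainly hormone-sensing luminal cells in the mouse mammary gland. Prom1 was at 7.37, 6.14 and 7.44 in WT replicates 1 to 3 and at 7.13, 5.06 and 6.41 in Mll3-null replicates 1 to 3. It was low on replicate 2 of both genotypes, and the groups overlapped. The means of 6.98 ± 0.73 and 6.20 ± 1.05 (SD, n = 3 each) differed by -0.78 ± 0.58 (log2, SE; 95% interval -2.18 to 0.62; adjusted p = 0.84, limma). This difference was -0.21 without Mll3-null replicate 2, -1.20 without WT replicate 2 and -1.24 without Mll3-null replicate 1. With array weights it was -1.48 (unadjusted p = 0.034, adjusted p = 0.43, limma). No label ties the replicate 2 samples of both genotypes to a shared mouse, line or day.

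Some luminal markers were also low on replicate 2 of both genotypes. The mean of the 9 luminal markers was 8.48 in WT replicate 2 and 8.49 in Mll3-null replicate 2, against 8.90 to 9.12 on the other 4 arrays. In Mll3-null replicate 2 that mean leaned largely on 1 gene, Foxa1, at 6.46 there and at 8.52 to 9.43 on the other arrays. The luminal keratin Krt19 was at 7.64 in WT replicate 2 and 8.22 in Mll3-null replicate 2, and at 9.22 to 9.56 elsewhere. WT replicate 2 was the lowest WT array for 7 of the 9 markers, and Mll3-null replicate 2 the lowest Mll3-null array for 5. Replicate 2 was the lowest array of its own group in both genotypes for 4 of the 9, Krt8, Krt19, Foxa1 and Esr1. The shares of all genes with these patterns were not computed, so the counts cannot be weighed. In Mll3-null cells the margin to the next array was slight for Krt8 (10.28 against 10.39) and Esr1 (5.95 against 6.06). Others went the other way: Elf5 was at 8.51 and Ehf at 8.76 in Mll3-null replicate 2, the second highest and the highest value of the 6 arrays, and Krt7 was at 10.85 in WT replicate 2, the second highest. Mll3-null replicate 3 had the highest luminal mean, 9.12, with Prom1 at only 6.41. Of the 9 luminal markers 5 had a higher and 4 a lower mean in Mll3-null cells. The part of these markers in the level of Prom1 was not tested.

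The RefSeq window before the first listed start of Prom1, at chr5:44101737-44101986 (minus strand), is shown beside that of Epcam, at chr17:87635729-87635978 (plus strand), because these genes had the widest and the narrowest spread among members with a mean of at least 6 apart from Lgr6. Capitals mark the same 5 motifs.

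Prom1: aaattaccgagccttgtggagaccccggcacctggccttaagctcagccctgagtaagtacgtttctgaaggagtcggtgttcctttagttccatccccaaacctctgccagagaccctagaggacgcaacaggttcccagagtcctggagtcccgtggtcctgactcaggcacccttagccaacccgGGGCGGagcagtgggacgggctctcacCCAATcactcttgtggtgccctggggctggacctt
Epcam: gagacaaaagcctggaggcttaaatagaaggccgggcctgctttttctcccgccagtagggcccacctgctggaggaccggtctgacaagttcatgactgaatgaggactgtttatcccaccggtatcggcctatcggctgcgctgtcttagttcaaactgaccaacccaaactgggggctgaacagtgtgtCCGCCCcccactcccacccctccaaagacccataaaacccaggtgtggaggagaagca

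The Prom1 window held 1 GC box and 1 CCAAT, and that of Epcam 1 GC box. CCAAT was present in 33.8% of all windows of this length. The windows held 9 and 8 CG dinucleotides, so in the windows shown the widely varying gene and the steady gene differed little in these counts. The window before the second listed start of Prom1 held 3 CG dinucleotides and 0 of the 5 motifs.

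TSPAN8 is a tetraspanin, a membrane protein that organises other surface proteins, and Tspan8 marks a quiescent subset of Lgr5-positive mammary cells. Tspan8 was at 4.15, 3.31 and 4.56 in WT replicates 1 to 3 and at 3.41, 3.45 and 3.79 in Mll3-null replicates 1 to 3 (log2 level). WT replicates 1 and 3 were above every Mll3-null array and WT replicate 2 below every one. The difference was -0.46 ± 0.31 (log2, SE; 95% interval -1.21 to 0.30; adjusted p = 0.84, limma), with means of 4.01 ± 0.64 and 3.55 ± 0.21 (SD, n = 3 each). It was -0.80 without WT replicate 2, with an unadjusted p of 0.0064 and an adjusted p of 0.89 (limma), and -0.18 without WT replicate 3. On 5 of the 6 arrays the value was under the array median, so Tspan8 was dim. Over the 6 arrays Lgr5 ran against Prom1 (Pearson's r = -0.81) and Tspan8 (r = -0.74), while Prom1 and Tspan8 ran together (r = 0.65). These are descriptions over 6 shared libraries, and Lgr5 and Tspan8 were dim.

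**Figure D2:**
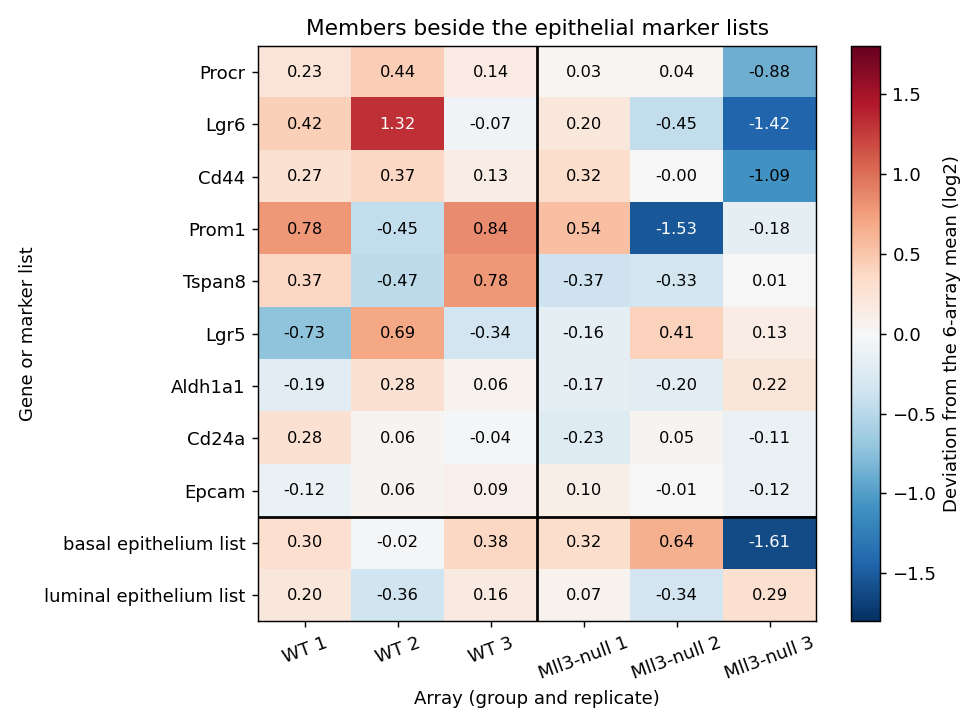
Deviation of each marker gene from its 6-array mean (log2; red above, blue below) on each array, with the mean of the 9 basal and of the 9 luminal markers in the bottom rows. Procr, Lgr6, Cd44 and the basal list are lowest on Mll3-null replicate 3, and Prom1 and the mean of the luminal list are low on replicate 2 of both genotypes. In Mll3-null replicate 2 the luminal mean leans largely on a low Foxa1.

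ALDH1A1 is a cytosolic enzyme that oxidises retinaldehyde to retinoic acid and contributes to the aldehyde dehydrogenase activity used for sorting. Aldh1a1 was at 4.88, 5.35 and 5.13 in WT replicates 1 to 3 and at 4.90, 4.87 and 5.29 in Mll3-null replicates 1 to 3. The ranges of both groups nearly coincided. The difference of -0.10 ± 0.17 (log2, SE; adjusted p = 0.91, limma) had a 95% interval from -0.50 to 0.30, with means of 5.12 ± 0.23 and 5.02 ± 0.23 (SD, n = 3 each), and was 0.015 without WT replicate 2. The window before its first listed RefSeq start held 3 matches to CTTTGA, and that before its second start held 0 of them and 1 CCAAT.

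CD24 and EPCAM are the surface proteins by which mammary epithelial cells are most often gated. CD24 is a small, heavily glycosylated protein held by a lipid anchor, and EPCAM is an adhesion molecule of epithelial cells. Both were bright on every array and had the narrowest 95% intervals of the 9 genes. Epcam was at 10.72, 10.89 and 10.93 in WT replicates 1 to 3 and at 10.94, 10.83 and 10.72 in Mll3-null replicates 1 to 3. All 6 values lay within 0.22 log2 units, including Mll3-null replicate 3, where Krt14 was at 6.65. The difference was -0.02 ± 0.10 (log2, SE; 95% interval -0.26 to 0.23; adjusted p = 0.98, limma), with means of 10.85 ± 0.11 and 10.83 ± 0.11 (SD, n = 3 each). Its sign changed to 0.0045 after quantile normalization.

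Cd24a was at 11.09, 10.87 and 10.78 in WT replicates 1 to 3 and at 10.59, 10.87 and 10.70 in Mll3-null replicates 1 to 3. Mll3-null replicate 2 lay level with WT replicate 2, and the other Mll3-null arrays lay below all WT arrays. The means of 10.91 ± 0.16 and 10.72 ± 0.14 (SD, n = 3 each) differed by -0.20 ± 0.12 (log2, SE; 95% interval -0.49 to 0.10; adjusted p = 0.84, limma). A second Cd24a probe set kept the same highest and lowest arrays, at 9.17, 8.81 and 8.56 in WT replicates 1 to 3 and at 8.21, 8.56 and 8.39 in Mll3-null replicates 1 to 3. Its difference was -0.46, with an unadjusted p of 0.037 and an adjusted p of 0.84 (limma) when the probe set of largest variance stood for each gene. Cd24a lies on chromosome 10, as do Lgr5 and Tspan8. The 445 genes of chromosome 10 with a mean of at least 6 had a median 0.22 log2 units above their 6-array median in WT replicate 1, while the remaining arrays gave -0.05 to 0.01. WT replicate 1 was also the highest array for Cd24a on both probe sets, but the lowest for Lgr5. Centred per chromosome, the difference of Cd24a was -0.10, and without WT replicate 1 it was -0.11. The same centring gave 0.35 for Lgr5 and -0.36 for Tspan8, against 0.25 and -0.46 without it.

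**Figure D3:**
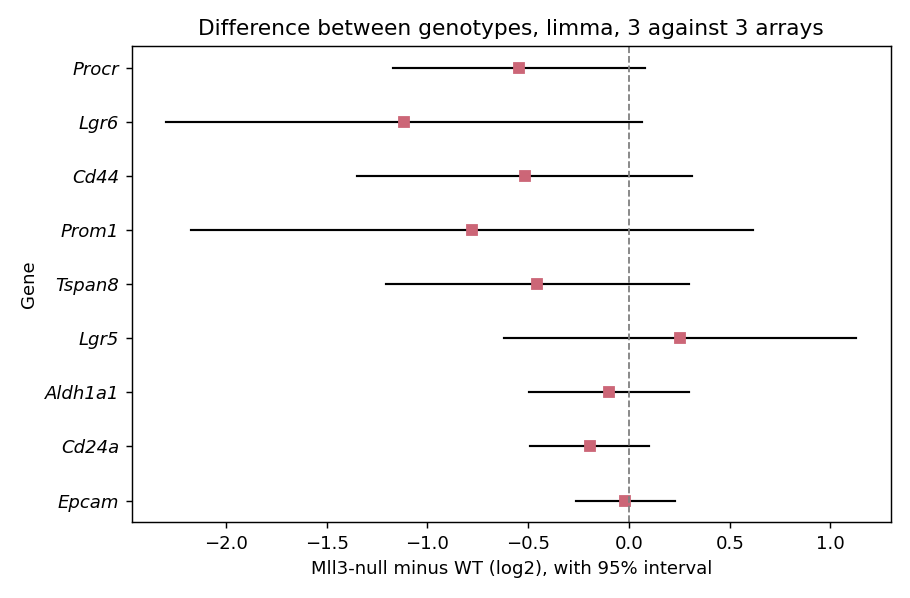
Difference between Mll3-null and WT cells for each marker gene (squares, log2) with its 95% interval from limma (lines), 3 arrays per genotype. Every interval includes 0, and those of Epcam (-0.26 to 0.23) and Cd24a (-0.49 to 0.10) are the narrowest.

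The intervals show which sizes of change the arrays could leave unseen. For Epcam, Cd24a and Aldh1a1 a 2-fold change in either direction lay outside the 95% interval of the probe set used. The second Cd24a probe set, with a difference of -0.46, is not covered by that interval. For Lgr6 and Prom1 the intervals reached beyond a 4-fold lower level, and for Procr, Cd44, Tspan8 and Lgr5 they included a 2-fold change in 1 direction.

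**Figure D4:**
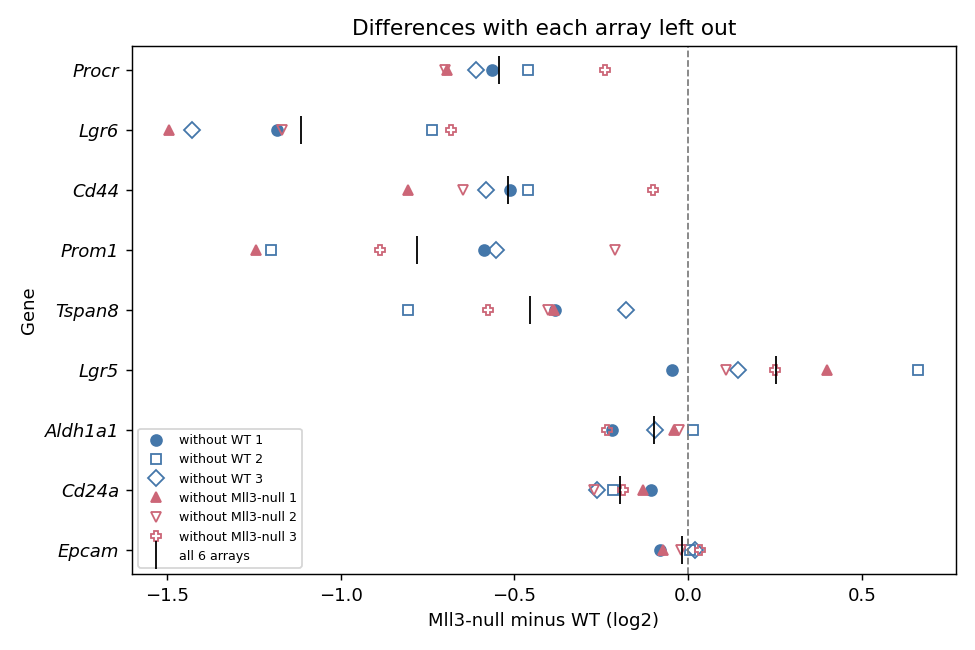
Difference between Mll3-null and WT cells (log2) for each marker gene with each array left out in turn (symbols) and with all 6 arrays (vertical bars). Procr, Lgr6 and Cd44 move nearest to 0 without Mll3-null replicate 3, Prom1 without Mll3-null replicate 2 and Tspan8 without WT replicate 3, while Lgr5 changes sign without WT replicate 1.

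Partners and relatives of the marker genes were read from the same fit, and 0 genes of any list below passed the adjusted threshold. Over all genes, 51.5% had a higher mean, 48.5% a lower one, and 4.93% an unadjusted p under 0.05 (limma). Such a p was reached by 1 gene each of the retinoic acid, tetraspanin and Ly6 lists. It was reached by 0 genes of the CD44, EPCAM and protein C receptor lists. Of 11 R-spondin receptor and Wnt feedback partners of LGR5 and LGR6, 8 had a higher and 3 a lower mean in Mll3-null cells (median 0.08, log2), and 0 had an unadjusted p under 0.05. The smallest p were those of the Wnt co-receptor Lrp5 (difference 0.36 ± 0.17, SE) and of Rnf43, a ubiquitin ligase that removes Wnt receptors (0.61 ± 0.38).

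The aldehyde dehydrogenase family split evenly, with 6 of 12 measured genes higher and 6 lower (median 0.01), and 3 had an unadjusted p under 0.05, as did 4.93% of all genes. Aldh1l2, a mitochondrial folate enzyme, was at 6.12, 5.81 and 6.60 in WT and at 6.94, 7.03 and 8.00 in Mll3-null replicates 1 to 3. Its groups did not overlap and the difference was 1.15 ± 0.33 (log2, SE; adjusted p = 0.84, limma). Aldh3a1, which clears aldehydes of lipid peroxidation, was at 7.45, 8.93 and 8.21 in WT and at 7.34, 6.70 and 5.73 in Mll3-null replicates 1 to 3. It differed by -1.61 ± 0.50 (log2, SE; adjusted p = 0.84, limma), again without overlap, and like Lgr6 was highest in WT replicate 2 and lowest in Mll3-null replicate 3. Among 11 genes of retinoic acid handling and response, 8 had a lower mean (median -0.19). Stra6, the retinol transporter, differed by -1.24 ± 0.50 and Cyp26a1, which degrades retinoic acid, by -0.46 ± 0.23 (log2, SE), both with an adjusted p of 0.84 (limma). Stra6 was at 6.38 and 6.30 in WT replicates 1 and 2 but at 4.53 in WT replicate 3, inside the Mll3-null range of 4.22 to 4.80.

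Of 13 measured genes around CD44 and its ligand hyaluronan, 6 had a higher and 7 a lower mean (median -0.03). Has2, a hyaluronan synthase, was at 10.86, 11.27 and 11.04 in WT and at 10.86, 10.09 and 8.38 in Mll3-null replicates 1 to 3, and thus had its lowest value on the same array as Cd44. The difference of Has2 was -1.28 ± 0.59 and that of the hyaluronidase Hyal2 -0.43 ± 0.21 (log2, SE; adjusted p = 0.84 for both, limma). Of 7 measured genes of the protein C receptor pathway 6 had a higher mean, against 51.5% of all genes. Their median difference was 0.05, against 0.01 over all genes, with Pros1, protein S, at 0.52 ± 0.33 and Thbd, thrombomodulin, at 0.15 ± 0.09. Only 3 of the 7 had a 6-array mean of at least 6, and 2 had one under 4. Procr had the opposite sign to most of this list, but most of these differences were small and none passed the test. Of 7 measured partners and proteases of EPCAM 5 had a lower mean (median -0.04), with the protease inhibitor Spint1 at -0.21 ± 0.13 and the LIM protein Fhl2 at -0.59 ± 0.40.

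Among 19 measured tetraspanins 13 had a higher and 6 a lower mean (median 0.06). Cd53, a leukocyte tetraspanin under the array median on all arrays, differed by 0.22 ± 0.09, and Cd63, of late endosomes, by -0.22 ± 0.12. Of 12 Ly6 family genes 8 had a lower mean (median -0.09). Ly6c1 differed by -0.25 ± 0.08 at levels of 2.73 to 3.08, which are below the lower quartile of each array (3.27 to 3.29), and Plaur, the urokinase receptor, by -0.71 ± 0.30. These relatives do not stand in for Ly6a, which was not measured alone. Of 13 other markers used in mammary sorting 5 had a higher and 8 a lower mean (median -0.18), and 2 had an unadjusted p under 0.05, against 4.93% of all genes. The integrin Itga6 (CD49f), which is gated together with CD24, was at 10.88, 10.71 and 10.75 in WT and at 10.95, 11.00 and 11.22 in Mll3-null replicates 1 to 3. Its groups did not overlap (difference 0.28 ± 0.11, log2, SE; adjusted p = 0.84, limma), and it was highest in Mll3-null replicate 3, the array with the lowest Procr, Lgr6 and Cd44. Itga2 (CD49b) differed by -1.10 ± 0.45 (log2, SE; adjusted p = 0.84, limma).

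Genes with the most similar profile over the 6 arrays were sought for Lgr6 and Prom1, the members with the widest range among those with a mean of at least 6. Among 8752 genes with such a mean, those nearest to Lgr6 by Pearson's r over 6 arrays were Atp11a (0.99), Zc3h12a (0.99) and Vnn1 (0.99). Vnn1 ran from 8.43 in WT replicate 2 to 4.10 in Mll3-null replicate 3, the same extremes as Lgr6. For Prom1 they were Ddx39a (0.98), Thada (0.98) and Srrt (0.98), whose own ranges were 0.65, 0.35 and 0.35 log2 units, against 2.37 for Prom1. High values were not confined to the named genes: 68 genes had r over 0.95 with Lgr6 and 27 with Prom1. How many would reach this with 6 points alone was not tested.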

How the data were processed

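Affymetrix Expression Console was used on the 6 arrays, per the submitters' processing notes, which give no version, summarization, normalization method or genome build. The deposited values are treated as log2 expression levels (1 per array for each probe set): they lie between 1.72 and 13.56, with near-equal quartiles (upper quartile 6.51 to 6.59), so the arrays had been put on a common scale before deposit. Of 41345 probe sets, 23521 carry 1 symbol in the platform annotation, 1814 several and 16010 none. The brightest probe set per gene left 22180 genes. The comparison of genotypes used R 4.3.3 and the package limma 3.58.1 (two-sided moderated test after lmFit and eBayes, all 6 arrays, no other term), with Benjamini-Hochberg adjustment over all genes and a threshold of 0.05. The script was tested on simulated data.

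The 10 genes and all lists were chosen with earlier results of these data known. Named were all 10, Kmt2c, the 2 genes of smallest p in each related list, and the 3 nearest profiles of 2 members. Marker genes of cell types are named where a result turns on them. Of 162 genes on those lists 151 had a value. Promoter windows and chromosomes come from RefSeq (GRCm38.p6). Alternatives covered the spread model, array weights, dim genes, normalization, the probe set, a replicate block, the threshold, each array left out and, added after the data were seen, centring per chromosome.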

Additional observations from a re-analysis of the deposited data

How the results depend on the processing

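Under every alternative run, 0 of the measured marker genes and 0 of all genes had an adjusted p under 0.05 by limma, also at a threshold of 0.1 for the marker genes, and the smallest adjusted p of a marker gene was 0.31 (Lgr6 without Mll3-null replicate 1). Of 149 differences recomputed for the 9 genes, 6 changed sign: Epcam after quantile normalization (0.0045) and with single arrays left out (-0.081 to 0.036), Lgr5 (-0.045 to 0.66) and Aldh1a1 (-0.23 to 0.015) with single arrays left out. The number of marker genes at an unadjusted p under 0.05, 0 with all arrays, was 2 with array weights (11.3% of all genes), 1 after median centring (4.88%), 1 with the probe set of largest variance (4.96%) and 0 to 3 with single arrays left out. The 3 were reached without Mll3-null replicate 1, where 12.4% of all genes had such a p, against 3.23% to 4.17% with any other array left out. The number with a higher mean in Mll3-null cells was 0 among genes with a mean of at least 6, since Lgr5 is below that limit. Of all genes with such a mean, 44.9% were higher. The number was 2 after quantile normalization (50.4% of all genes) and 0 to 3 with single arrays left out (49.9% to 52.4%). The number with non-overlapping groups was 1 to 4 with single arrays left out, where 17.9% to 29.8% of all genes had such groups. With array weights the differences of Procr (-0.34), Cd44 (-0.34), Cd24a (-0.13), Lgr5 (0.50) and Aldh1a1 (-0.16) also moved by over 1.5 times. So did those of Prom1 (-1.48) and Epcam (from -0.018 to -0.0051). The cause of these shifts was not tested.

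Same-numbered replicates were not shown to be paired: the correlations of their deviations from the group means across genes were 0.03, 0.08 and 0.31 for numbers 1 to 3, WT replicate 2 correlated more with Mll3-null replicate 1 (0.22), and no label gives a shared source. With the replicate block 3 marker genes had an unadjusted p under 0.05 (Procr, Lgr6 and Prom1; 5.82% of all genes) and 0 an adjusted one.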
